A study of Mus musculus with 11 samples.

Results

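Testes of mice lacking iron regulatory protein 1 (Irp1-/-, labelled Irp1_KO) were compared directly with testes of mice lacking iron regulatory protein 2 (Irp2-/-, labelled Irp2_KO). The comparison used 7 of the 11 sequenced samples, 4 Irp1-/- (replicates 1, 2, 6 and 7) and 3 Irp2-/- (replicates 1, 2 and 3), and 16281 of the 24411 genes in the count table passed the filter on low counts. Irp1-/- mice carried a global knockout of Aco1 (allele Aco1tm1Roua, bred on C57Bl/6J), and Irp2-/- mice a global knockout of Ireb2, whose allele and breeding are not given in the sources used here. The other 4 samples were wild type (WT, C57Bl/6J), were not in the test, and are given only as a description. The paper describes its wild-type controls as littermates from matings of Irp1+/- mice, so WT belongs to the Irp1 colony by that account. All mice were 20 weeks old and untreated, and polyadenylated RNA of decapsulated whole testis was sequenced as paired-end reads. Column names hold a letter of unstated meaning, which is R in Irp1-/- replicate 6 and L elsewhere. The genotype cannot be told apart from the colony or litter that each knockout came from. In whole tissue, fewer cells of a type and less RNA per cell cannot be told apart.

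Irp1 and Irp2 are cytosolic RNA-binding proteins that sense iron. When iron is low they bind a stem-loop, the iron-responsive element (IRE), in a few mRNAs. Binding in the 5′ untranslated region blocks translation (ferritin chains, ferroportin, Epas1), and binding in the 3′ untranslated region protects the mRNA from decay (transferrin receptor Tfrc, the divalent metal transporter Slc11a2). With iron at hand, Irp1 takes up an iron-sulfur cluster and works as cytosolic aconitase, whereas Irp2 is degraded through the ubiquitin ligase adaptor Fbxl5. Germ cells of the testis receive iron through Sertoli cells, which secrete transferrin.

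The IREs of 6 transcripts are shown because they are the sites that both proteins bind. Capitals mark the loop, the stems of Epas1 and Slc11a2 hold 1 extra base, and the letters are from GENCODE M21 transcripts on GRCm38 (mm10).
Fth1, 5′ untranslated region, chr19:9982732-9982761, plus strand: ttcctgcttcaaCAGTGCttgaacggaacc
Ftl1, 5′ untranslated region, chr7:45459778-45459807, minus strand: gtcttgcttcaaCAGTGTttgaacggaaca
Slc40a1, 5′ untranslated region, chr1:45925464-45925493, minus strand: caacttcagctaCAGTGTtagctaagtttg
Epas1, 5′ untranslated region, chr17:86753768-86753797, plus strand: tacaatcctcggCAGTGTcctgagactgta
Slc11a2, 3′ untranslated region, chr15:100395152-100395181, minus strand: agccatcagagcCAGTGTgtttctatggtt
Tfrc, 3′ untranslated region, first of 4 sites, chr16:32631219-32631248, plus strand: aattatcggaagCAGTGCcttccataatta

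The targeted genes were read first. Levels are CPM, counts scaled to a common library total after TMM normalization for composition, and log2 fold changes are Irp1-/- over Irp2-/-. Ireb2, which encodes Irp2 (chromosome 9, 54862658 to 54912534), had 135, 145, 143 and 125 CPM in the Irp1-/- samples and 62.0, 61.8 and 62.7 CPM in the Irp2-/- samples. WT samples lay between 131 and 144 CPM, so Ireb2 RNA remained in the Irp2-/- libraries at less than the level of every other library. Its log2 fold change was 1.14 (standard error 0.055, edgeR adjusted p = 9.2e-12). Aco1, which encodes Irp1 (chromosome 4, 40143265 to 40199009), had 9.10, 9.13, 7.93 and 8.17 CPM in Irp1-/- samples and 11.8, 10.1 and 13.4 CPM in Irp2-/- samples, with WT between 9.80 and 12.9 CPM. The log2 fold change of Aco1 was -0.45 (standard error 0.107, edgeR adjusted p = 0.014). Without Irp2-/- replicate 3 its adjusted p was 0.103. Both targeted transcripts were thus lower in their own knockout and neither was at 0. Fbxl5, the sensor that marks Irp2 for degradation, was not called (log2 fold change 0.05, edgeR adjusted p = 0.65).

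Between the knockouts, 763 genes had an adjusted p under 0.05 in edgeR's quasi-likelihood test (called genes, 4.69% of the tested genes). Of these, 476 were higher in Irp1-/- (2.92%) and 287 were lower (1.76%). Most differences were small: the median absolute log2 fold change of the called genes was 0.40, and 502 of the 763 were under 0.5. A log2 difference beyond 1 as well was met by 70 genes (0.430%), 35 in each direction. The Irp1-/- and Irp2-/- samples did not overlap for 745 of the called genes, whereas they did not overlap for 15.2% of all tested genes. At an unadjusted p under 0.05 there were 2661 genes (16.3%). The count of called genes was 471 without Irp1-/- replicate 1 and 414 without Irp2-/- replicate 2.

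**Figure D1:**
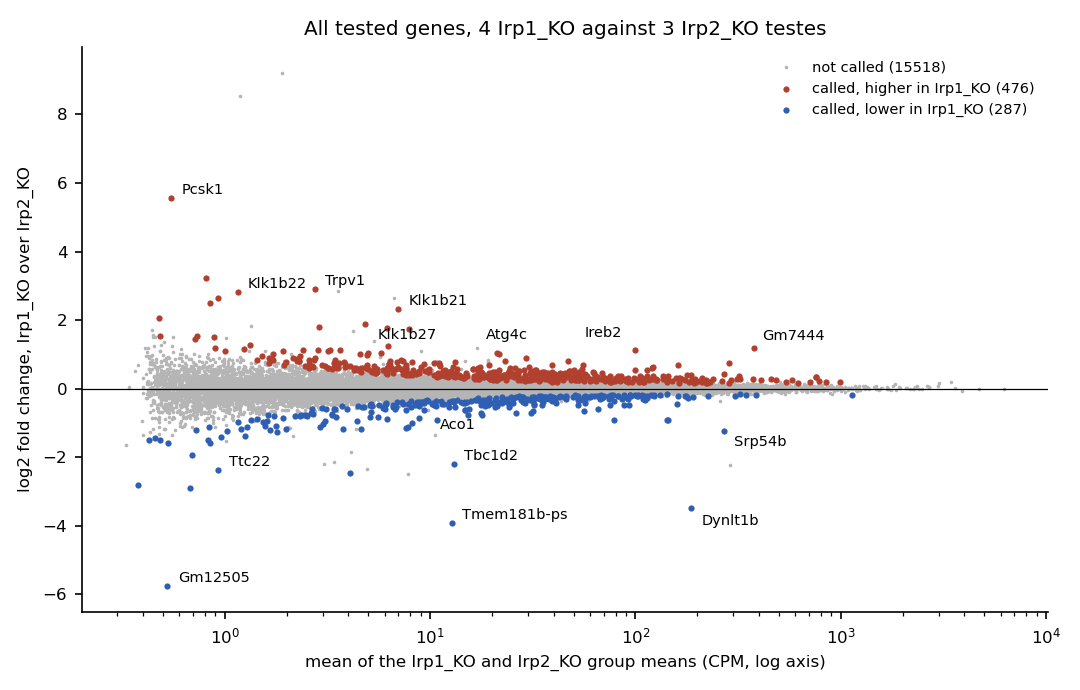
Each point is 1 of the 16281 tested genes, with the mean of both knockouts' mean CPM on a log axis and the log2 fold change of Irp1-/- over Irp2-/-, coloured where the adjusted p was under 0.05. The 476 genes higher and 287 genes lower in Irp1-/- lie mostly close to 0, with Tmem181b-ps, Dynlt1b and Tbc1d2 far below and Klk1b21, Trpv1 and Gm7444 above.

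The WT samples show which knockout lay apart, as a description, since the knockout samples are the ones that chose the genes. Of the 763 called genes, 308 (40.4%) had every Irp2-/- sample outside the range of WT while the Irp1-/- samples overlapped it. For 145 genes (19.0%) it was the Irp1-/- samples alone that were apart from WT. In 75 genes (9.83%) both knockouts were apart with WT between them, in 3 both were apart on the same side, and in 232 neither was. Over all tested genes, the samples did not overlap WT for 6.58% in Irp1-/- and for 9.19% in Irp2-/-. Among the 70 genes past 2-fold, 39 had only Irp2-/- apart and 8 had only Irp1-/- apart. A group of fewer samples clears the WT range more easily by chance, and Irp2-/- had 3 samples against 4 in Irp1-/-. WT also belongs to the Irp1 colony by the paper's account. A difference of Irp2-/- from WT thus cannot be told apart from a difference between colonies, here and in all later placements against WT. These shares therefore do not show which knockout differed more from WT.

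Genes with the largest differences where Irp1-/- stood apart from WT included neighbours on chromosome 17. Dynlt1b, a copy of the gene for a dynein light chain (chromosome 17, 6429530 to 6440500), had 33.6, 30.8, 26.6 and 31.7 CPM in Irp1-/- samples and 412, 278 and 336 CPM in Irp2-/- samples, with 206 to 304 CPM in WT. Tmem181b-ps, a transcribed pseudogene that overlaps its end (6439002 to 6450994), had 1.73, 1.62, 1.30 and 1.70 CPM in Irp1-/- and 22.5, 21.1 and 28.2 CPM in Irp2-/- samples. Every Irp1-/- sample was far below every other sample for both genes. The log2 fold changes were -3.48 for Dynlt1b (standard error 0.159, edgeR adjusted p = 0.00013) and -3.91 for Tmem181b-ps (standard error 0.133, edgeR adjusted p = 2.9e-14). Reads of near-identical copies can be split between them, so the copies were also summed. The 4 Dynlt1 copies together gave a mean of 478 CPM (SD 13, n = 4) for Irp1-/-, 825 CPM (SD 98.3, n = 3) for Irp2-/- and 726 CPM (SD 56.5, n = 4) for WT. Dynlt1a alone had 68.3 to 73.5 CPM in the 7 knockout samples and was not called.

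Tbc1d2, which encodes a GTPase-activating protein for Rab proteins (chromosome 4, 46604390 to 46650340), had 4.76, 4.68, 4.74 and 4.34 CPM in Irp1-/- samples and 20.0, 21.2 and 23.3 CPM in Irp2-/- samples. WT samples had 20.5 to 26.1 CPM, within or above the Irp2-/- range. Its log2 fold change was -2.21 (standard error 0.095, edgeR adjusted p = 1.6e-12). The opposite direction was seen for Zfp462, a zinc finger gene (chromosome 4, 54944491 to 55083563), with 31.1, 27.3, 31.3 and 28.0 CPM in Irp1-/- and 17.9, 15.8 and 16.5 CPM in Irp2-/- samples. WT samples had 15.9 to 17.3 CPM, and the log2 fold change was 0.81 (standard error 0.075, edgeR adjusted p = 4.4e-07). The uncharacterised gene Gm12505, also on chromosome 4, had 1 count over the 4 Irp1-/- libraries and 64 counts over the 3 Irp2-/- libraries, a ratio per library size of 81.1 (exact 95% interval 14.1 to 3254, counting error only).

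Genes where Irp2-/- stood apart from WT included a block of copies on chromosome 12. Srp54b, a copy of the gene for a subunit of the signal recognition particle, which brings nascent secretory proteins to the endoplasmic reticulum (chromosome 12, 55155104 to 55189213), had 154, 166, 167 and 152 CPM in Irp1-/- samples and 379, 347 and 406 CPM in Irp2-/- samples. WT samples, at 159 to 179 CPM, overlapped Irp1-/-. The log2 fold change was -1.24 (standard error 0.055, edgeR adjusted p = 2.4e-12). The adjacent copies Fam177a and 1700047I17Rik2 had nearly the same counts as each other and log2 fold changes of -0.90 and -0.91 (standard errors 0.049 and 0.048, edgeR adjusted p = 4.9e-11 and 4.6e-11), and they are uncertain as separate genes, since the division of reads between copies is not stated. Srp54c in the same block was called at -0.22 (edgeR adjusted p = 0.012), and Srp54a was not (-0.22, adjusted p = 0.093). Summed over the 3 Srp54 copies, the mean was 354 CPM (SD 16.6, n = 4) for Irp1-/-, 604 CPM (SD 38.4, n = 3) for Irp2-/- and 363 CPM (SD 18.6, n = 4) for WT.

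**Figure D2:**
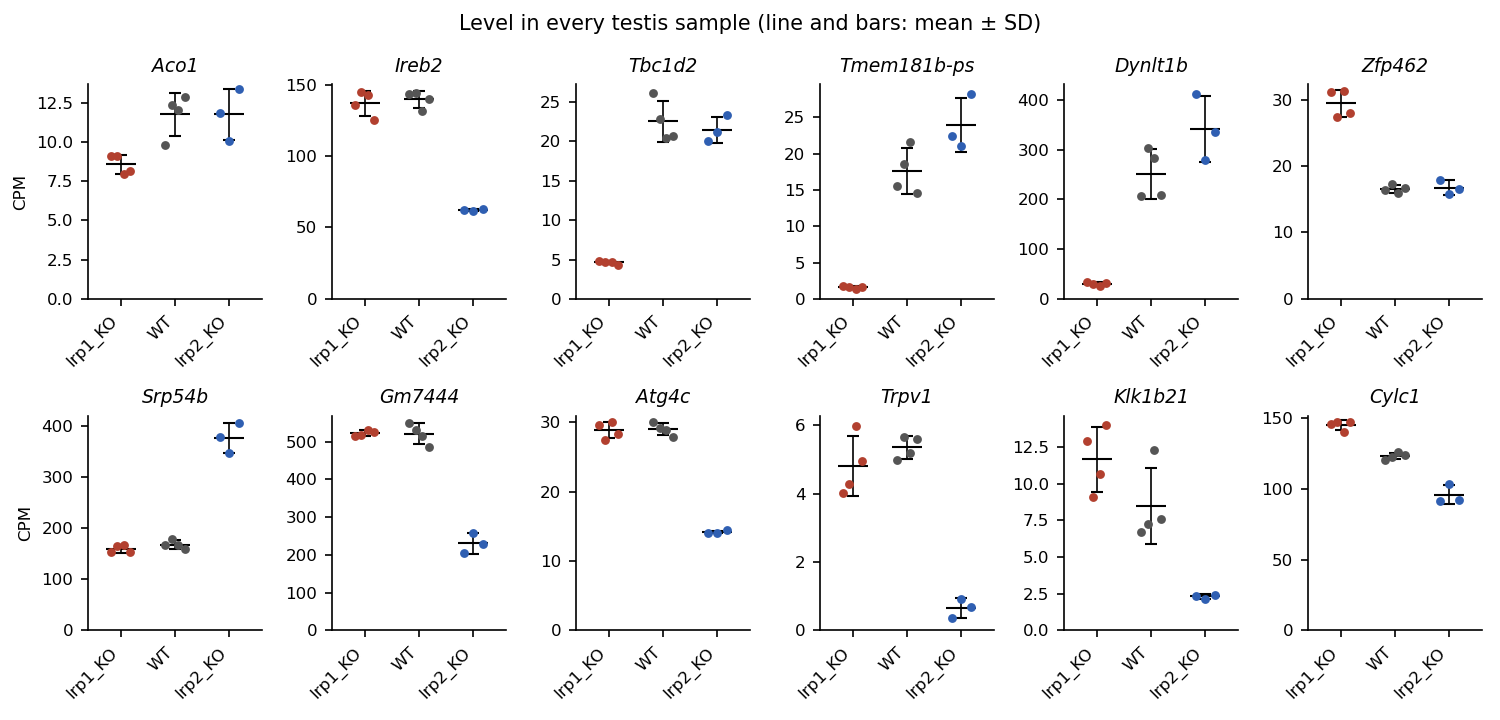
CPM of 12 genes in every sample, with 4 Irp1-/-, 4 WT and 3 Irp2-/- testes from left to right in each panel and the group mean ± SD as black lines. In the upper row from Tbc1d2 to Zfp462 the Irp1-/- samples stand apart from WT and Irp2-/-, whereas in the lower row from Srp54b to Klk1b21 it is the Irp2-/- samples, and Cylc1 has WT between both.

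Lower in Irp2-/- than in both other groups were several unrelated genes. Gm7444, a gene on chromosome 9 close to Ireb2 (56027636 to 56031573), had 514, 519, 531 and 524 CPM in Irp1-/- samples and 204, 259 and 229 CPM in Irp2-/- samples, and its log2 fold change was 1.18 (standard error 0.061, edgeR adjusted p = 7.2e-11). Trpv1, the capsaicin-gated cation channel (chromosome 11, 73234149 to 73261322), had 4.03, 4.27, 5.99 and 4.96 CPM in Irp1-/- and 0.356, 0.923 and 0.684 CPM in Irp2-/- samples. WT samples had 4.98 to 5.65 CPM for Trpv1, and the log2 fold change was 2.89 (standard error 0.245, edgeR adjusted p = 1.2e-07). Pcsk1, a protease that processes prohormones, had 81 counts over the Irp1-/- libraries and 1 count over the Irp2-/- libraries, a ratio per library size of 63.9 (exact 95% interval 11.1 to 2554, counting error only). Sox14, a transcription factor gene, and Gm10324 had log2 fold changes of 2.65 and 3.24 at group means of at most 1.59 CPM.

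The kallikreins of the Klk1b cluster, secreted serine proteases of which several are made by Leydig cells, had the largest share of called members among the 26 gene lists examined. The lists were chosen with earlier results of these data known, so this rank is a description only. Of 12 tested members, Klk1 among them, 5 were called (41.7%, against 4.69% of all genes). All 5 were higher in Irp1-/-, and the median of the 12 log2 values was 0.48. Klk1b21 had 12.9, 9.08, 10.7 and 14 CPM in Irp1-/- samples and 2.36, 2.15 and 2.42 CPM in Irp2-/- samples, with 6.72 to 12.3 CPM in WT. Its log2 fold change was 2.32 (standard error 0.157, edgeR adjusted p = 3.5e-09), and those of Klk1b27, Klk1b22, Klk1b24 and Klk1b16 were 1.89, 2.81, 1.78 and 1.20. For all except Klk1b16 the Irp2-/- samples were below every WT sample. The members did not move alike: Klk1b8 had 40.4 to 50.1 CPM in Irp1-/- and 42.0 to 47.8 CPM in Irp2-/- samples. Klk1b16 lost its call in 5 of the 7 fits that left out a sample (adjusted p up to 0.16), and requiring at least 10 counts in every sample left 3 called members. Summed over 13 Klk1b genes, the mean was 104 CPM (SD 11.6, n = 4) for Irp1-/-, 74.8 CPM (SD 5.18, n = 3) for Irp2-/- and 96.2 CPM (SD 5.50, n = 4) for WT. These genes are similar in sequence, and how reads were split among them is not stated.

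Transcripts that carry an IRE differed little. Of 12 tested, Fth1 was called higher and Epas1 lower in Irp1-/- (16.7%, against 4.69% of all genes), and the median log2 fold change was -0.04. Fth1, the ferritin heavy chain, had 156, 157, 151 and 166 CPM in Irp1-/- samples and 142, 124 and 127 CPM in Irp2-/- samples. WT samples lay between the knockouts at 144 to 151 CPM, and the log2 fold change was 0.26 (standard error 0.054, edgeR adjusted p = 0.005). Without Irp2-/- replicate 2 the adjusted p of Fth1 was 0.068. Epas1, which encodes the hypoxia-inducible factor 2α, had 38.7, 33.0, 36.3 and 32.0 CPM in Irp1-/- samples and 47.5, 47.9 and 45.7 CPM in Irp2-/- samples. Here WT overlapped Irp1-/- at 35.2 to 38.1 CPM, and the log2 fold change was -0.42 (standard error 0.064, edgeR adjusted p = 0.00023).

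The other IRE transcripts were not called. Tfrc, with 4 IREs in its 3′ untranslated region, had 15.7 to 19.3 CPM in Irp1-/- and 17.3 to 18.7 CPM in Irp2-/- samples (log2 fold change -0.08, standard error 0.081, edgeR adjusted p = 0.71). For the ferritin light chain, Ftl1, the log2 fold change was -0.09 (standard error 0.076), for Slc11a2 -0.11 (standard error 0.073) and for the iron exporter ferroportin, Slc40a1, 0.25 (standard error 0.353, at 0.769 to 3.19 CPM per sample). The groups overlapped for all 4 genes. A stem-loop with the loop CAGTGN, a 5-base stem and an unpaired C below it was found in the 5′ untranslated region of 30 of 21877 genes searched (0.137%), and 1 of the 26 tested among them was called (Fth1). Stems with 1 extra base, as in Epas1, were counted separately. They were found in 47 genes, and 2 of the 39 tested were called (Epas1 and Pdlim2). In the 3′ untranslated region the stem without an extra base was found in 128 genes, and 5 of 108 tested were called (4.63%), close to the 4.69% of all genes. The stem with 1 extra base, as in Slc11a2, was found there in 231 genes, and 3 of 189 tested were called (1.59%). Such a match is a description of letters, not of binding.

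Other genes of iron handling were called in single cases. Of 24 tested genes of iron transport and ferritin handling, 2 were called (8.33%, against 4.69% of all genes), both higher in Irp1-/-. Lcn2, which binds iron-carrying siderophores, had 138, 144, 130 and 136 CPM in Irp1-/- and 103, 101 and 115 CPM in Irp2-/- samples (log2 fold change 0.37, standard error 0.055, edgeR adjusted p = 0.00019). The Irp1-/- samples were above the WT range of 109 to 121 CPM. Trf, transferrin, had 15.2 to 19.0 CPM in Irp1-/- and 11.6 to 14.2 CPM in Irp2-/- samples (log2 fold change 0.37, standard error 0.093, edgeR adjusted p = 0.023), with WT at 14.9 to 19.9 CPM. Its adjusted p was 0.112 without Irp1-/- replicate 1 and 0.162 without Irp2-/- replicate 2.

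Among 20 genes of heme synthesis and breakdown 1 was called (5%, against 4.69% of all genes). Alad, which makes porphobilinogen, had 34.9, 34.0, 28.1 and 30.9 CPM in Irp1-/- and 23.8, 19.5 and 23.5 CPM in Irp2-/- samples, and WT samples at 20.9 to 23.4 CPM overlapped Irp2-/-. The log2 fold change was 0.52 (standard error 0.083, edgeR adjusted p = 0.00051). Alad lies on the chromosome of Aco1 at a distance of 22.4 Mb. Of 28 genes of iron-sulfur cluster assembly only Fdxr, ferredoxin reductase, was called (3.57%, log2 fold change 0.31, edgeR adjusted p = 0.027). Fdxr lost its call in 5 of the 7 fits that left out a sample (edgeR adjusted p up to 0.188). None of 30 respiratory chain genes was called in edgeR or in DESeq2, against 4.69% of all genes in edgeR. Of the 30, 1 had an unadjusted p under 0.05 in edgeR, against 16.3% of all genes. Of 24 targets and regulators of hypoxia-inducible factors 2 were called (8.33%, against 4.69% of all genes). These were Epas1 and the stress-response gene Ndrg1 (log2 fold change -0.36, standard error 0.089, edgeR adjusted p = 0.018), both higher in every Irp2-/- sample than in every WT and Irp1-/- sample. Ndrg1 lost its call in 3 of the 7 fits that left out a sample, with an adjusted p of 0.11 without Irp2-/- replicate 3.

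Among 47 tested genes of glutathione, thioredoxin and ferroptosis defence, a list that also holds superoxide dismutases and catalase, 7 were called higher in Irp1-/- and 1 lower. This was 17% called, against 4.69% of all genes, and the median log2 fold change was 0.07, against -0.0019 over all genes. Gpx3, the secreted glutathione peroxidase, had 7.22, 5.49, 5.64 and 5.97 CPM in Irp1-/- and 2.89, 3.64 and 2.47 CPM in Irp2-/- samples (log2 fold change 1.02, standard error 0.154, edgeR adjusted p = 0.00024), with WT between at 3.81 to 5.35 CPM. The glutathione transferases Gsta2, Gstm1 and Gstm2, which conjugate glutathione to reactive compounds, had log2 fold changes of 0.52, 0.36 and 0.33, and Gpx6, Prdx4 and Mgst1 of 0.41, 0.31 and 0.25. Sesn1, a sestrin, had a value of -0.25 and was lower in Irp1-/-. Gpx4, the peroxidase of lipid hydroperoxides that sperm need, had 1060.3 to 1235 CPM in Irp1-/- and 1024 to 1260.2 CPM in Irp2-/- samples and was not called. With all 11 samples in the fit, or without Irp1-/- replicate 1, 4 of the 47 were called higher and 0 lower. Leaving out each of the 7 samples in turn, Gpx6 lost its call in 3 fits, Prdx4 in 4, Sesn1 in 5 and Mgst1 in 6, each of them without Irp2-/- replicate 2 (adjusted p = 0.09 to 0.24) among others. Gstm1 and Gstm2 were not called with all 11 samples in the fit (0.36 and 0.22).

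Several called genes are markers of the somatic cells of the testis. Of 27 tested Sertoli cell markers 6 were called (22.2%, against 4.69% of all genes), all higher in Irp1-/-: Amh, Fshr, Rhox5, Trf, Cst9 and Nr5a1, with log2 fold changes of 0.19 to 0.86. Amh, the anti-Müllerian hormone, had 2.93, 1.71, 1.90 and 2.2 CPM in Irp1-/- and 1.20, 1.03 and 1.37 CPM in Irp2-/- samples, and Fshr, the receptor of follicle-stimulating hormone, had 1.85 to 2.77 CPM against 1.03 to 1.53 CPM. The defining transcription factors Sox9 and Wt1 had log2 fold changes of -0.06 and 0.06 and were not called. Summed over the list, Sertoli markers had 2184 to 2451 CPM in Irp1-/-, 1980 to 2257 CPM in Irp2-/- and 2033 to 2175 CPM in WT samples, so the knockouts overlapped each other and the Irp1-/- samples all lay above WT. The count of 6 was 2 in DESeq2 and 0 without Irp1-/- replicate 1 or Irp2-/- replicate 2 (adjusted p = 0.11 to 0.17 and 0.14 to 0.24).

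Of 31 genes of Leydig cells and steroid synthesis 5 were called (16.1%, against 4.69% of all genes), all higher in Irp1-/-. The 5 include Nr5a1, also counted among the Sertoli markers, and Fdxr, also counted among the iron-sulfur genes. Nr5a1 lost its call in 4 of the 7 fits that left out a sample (adjusted p up to 0.156), and Fdxr in 5. Hsd3b1, a steroid dehydrogenase, had 53.0, 47.6, 47.9 and 44.9 CPM in Irp1-/- and 24.6, 29.2 and 37.4 CPM in Irp2-/- samples (log2 fold change 0.68, standard error 0.127, edgeR adjusted p = 0.017). Its adjusted p was 0.112 without Irp2-/- replicate 2 and 0.081 without Irp1-/- replicate 6. Ephx1, microsomal epoxide hydrolase, differed by 0.47 on the log2 scale (edgeR adjusted p = 0.00045, and 0.23 with all 11 samples), and Insl3, the Leydig peptide hormone, by 0.27 (adjusted p = 0.042). Insl3 lost its call in 6 of the 7 fits that left out a sample (adjusted p up to 0.158), and was called only without Irp2-/- replicate 3. The steroid enzymes Cyp11a1 and Cyp17a1 and the cholesterol carrier Star were not called (log2 fold changes 0.21, 0.27 and 0.31), and Star ranged from 50.7 to 119 CPM within Irp1-/-. Summed Leydig markers had 2432 to 2720 CPM in Irp1-/-, 2115 to 2444 CPM in Irp2-/- and 2089 to 2501 CPM in WT samples. Leaving out Irp2-/- replicate 2 left 1 called member, and leaving out Irp2-/- replicate 3 gave 8. The part of Sertoli or Leydig cell number in these differences was not tested.

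The called macrophage genes had the opposite direction. Of 18 tested 4 were called (22.2%, against 4.69% of all genes), all lower in Irp1-/-. All 4 encode the antigen-presenting MHC class II molecules or their chaperone: Cd74, H2-Aa, H2-Eb1 and H2-Ab1, with log2 fold changes of -0.62, -0.57, -0.51 and -0.37. Cd74, the invariant chain, had 12.7, 12.9, 9.58 and 11.6 CPM in Irp1-/- and 18.9, 19.0 and 15.8 CPM in Irp2-/- samples. One WT sample (replicate 2) had 21.1 CPM of Cd74 and the other WT samples 8.06 to 9.31 CPM, so WT spanned both knockouts. The general macrophage genes Csf1r and Adgre1 were not called (log2 fold changes -0.15 and -0.49). With all 11 samples in the fit 0 of the 18 were called, and Cd74 had an adjusted p of 0.38. Without Irp2-/- replicate 2 only Cd74 was called (0.0092), and the other 3 had adjusted p values of 0.10 to 0.27. Leaving out each of the 7 samples in turn, H2-Aa lost its call in 2 fits, H2-Eb1 in 4 and H2-Ab1 in 5.

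**Figure D3:**
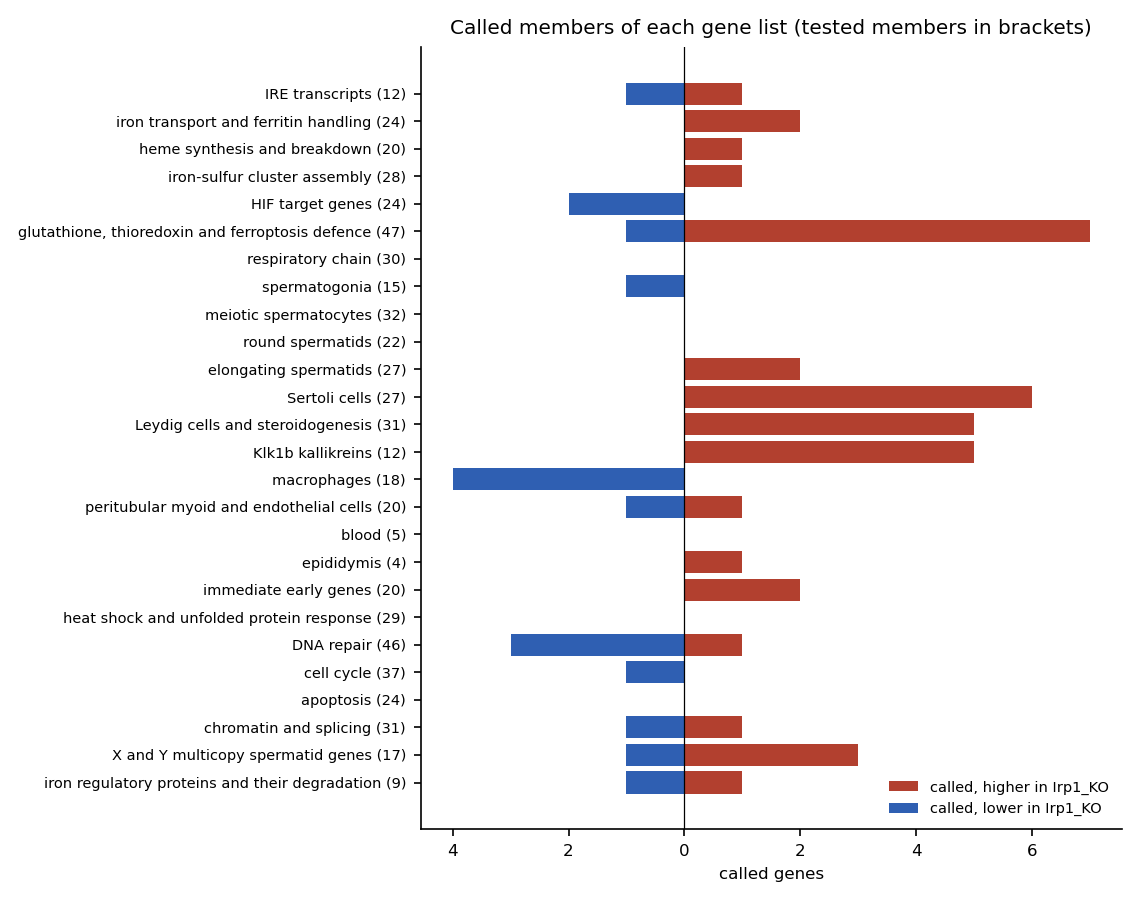
Number of called genes in each of 26 gene lists, to the right for genes higher and to the left for genes lower in Irp1-/- than in Irp2-/-, with the number of tested members in brackets. Genes of glutathione, thioredoxin and ferroptosis defence (7 higher), Sertoli (6), Leydig and Klk1b genes (5 each) extend furthest to the right and macrophage genes (4) to the left. Lists of spermatocytes, round spermatids, respiratory chain, blood, heat shock and apoptosis have no called member.

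Germ cell markers had 0 to 2 called members per list, against 4.69% of all genes called. None of 32 tested genes of meiotic spermatocytes and none of 22 of round spermatids was called in edgeR or in DESeq2. An unadjusted p under 0.05 in edgeR was met by 2 and 1 of them, against 16.3% of all genes. Their median log2 fold changes were -0.03 and 0.06, and Sycp1, the transverse filament protein of the synaptonemal complex, had 216 to 230 CPM in Irp1-/- and 238 to 246 CPM in Irp2-/- samples (log2 fold change -0.12, edgeR adjusted p = 0.18). Among 27 genes of elongating spermatids Akap14 and Car2 were called higher in Irp1-/- (log2 fold changes 0.36 and 0.29), and each lost its call in 3 of the 7 fits that left out a sample, without Irp2-/- replicate 2 in both cases (adjusted p = 0.097 and 0.14). Akap14 lies on the X chromosome, like Rhox5 and Prdx4. Of 15 tested spermatogonial markers Sall4 alone was called (6.67%), lower in Irp1-/- at 2.45 to 2.93 CPM against 3.49 to 4.50 CPM. Its log2 fold change was -0.58 (edgeR adjusted p = 0.032, and 0.054 to 0.12 without Irp1-/- replicate 1, 2 or 7 or Irp2-/- replicate 1 or 3). Defining spermatogonial markers Zbtb16 and Gfra1 were not called (log2 fold changes -0.08 and 0.30). Summed blood markers had 51.3 to 83.1 CPM in Irp1-/- and 32.2 to 54.0 CPM in Irp2-/- samples, with 0 of 5 called and Hbb-bs at 0 counts in every sample. Summed epididymal markers had 29 to 37.0 CPM and 25.7 to 28.3 CPM, with 1 of 4 called (Eppin, 0.33) and Lcn5, Lcn10 and Spint4 at 0 counts in every sample. Of 20 markers of myoid and endothelial cells 10% were called, against 4.69% of all genes. Actg2, a smooth muscle actin, was called higher (0.19) and Vwf, the von Willebrand factor, lower in Irp1-/- (-0.47). Actg2 lost its call in 5 of the 7 fits that left out a sample (adjusted p up to 0.176) and Eppin in 3 (up to 0.115), and Vwf was called in all 7.

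Of 46 DNA repair genes 1 was called higher and 3 lower in Irp1-/- (8.70%, against 4.69% of all genes). Ercc5, an endonuclease of nucleotide excision repair, had 16.7, 18.6, 18 and 16.8 CPM in Irp1-/- and 26.4, 23.9 and 24.7 CPM in Irp2-/- samples (log2 fold change -0.51, standard error 0.072, edgeR adjusted p = 0.00011). Pole, the catalytic subunit of a replicative DNA polymerase, and Rad23b had log2 fold changes of -0.21 and -0.18. Xpa, the damage-binding scaffold of the same repair pathway, was higher by 0.43 (edgeR adjusted p = 0.031). Rad23b and Xpa lie 15.2 Mb and 6.03 Mb from Aco1. Of the 7 fits that left out a sample, Xpa lost its call in 6 (adjusted p up to 0.156), Rad23b in 2 (up to 0.124) and Pole in 2 (up to 0.084). Summed DNA repair genes had 3111 to 3178 CPM in Irp1-/-, 3265 to 3350.0 CPM in Irp2-/- and 3272 to 3356 CPM in WT samples, so Irp1-/- lay below both, and 10 of the 46 log2 fold changes were above 0. Of 37 cell cycle genes only Ccsap, a spindle-associated protein, was called (2.70%, log2 fold change -0.28, edgeR adjusted p = 0.0031). The cell cycle list summed to 2313 to 2390.5 CPM in Irp1-/-, 2392 to 2502 CPM in Irp2-/- and 2418 to 2494 CPM in WT samples, with 10 of 37 log2 fold changes above 0. Of 24 apoptosis genes none was called in edgeR, against 4.69% of all genes, with 3 at an unadjusted p under 0.05. Mfge8, a bridge between dying cells and phagocytes, was closest with an adjusted p of 0.056 (log2 fold change 0.31), and was called in DESeq2 (0.0065). None of 29 genes of heat shock and the unfolded protein response was called in edgeR, against 4.69% of all genes, and 3 had an unadjusted p under 0.05.

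Regulators of transcription and chromatin were called in single cases. Nr4a1, an orphan nuclear receptor of the immediate early class, had 58.9, 57.9, 61.1 and 57.6 CPM in Irp1-/- and 45.5, 42.8 and 45.1 CPM in Irp2-/- samples, with WT between at 47.2 to 51.2 CPM (log2 fold change 0.41, standard error 0.053, edgeR adjusted p = 4.8e-05). Of 20 immediate early genes Jund (0.25) was the other one called, so 10% were called, against 4.69% of all genes. Suv39h2, a histone methyltransferase of heterochromatin that is abundant in testis, had 46.8 to 51.6 CPM in Irp1-/-, 47.9 to 51.7 CPM in WT and 34.1 to 38.7 CPM in Irp2-/- samples (log2 fold change 0.46, standard error 0.060, edgeR adjusted p = 4.4e-05). Suz12, a Polycomb subunit, was called at -0.20 (edgeR adjusted p = 0.032), and lost its call in 6 of the 7 fits that left out a sample (adjusted p up to 0.134). Of 31 chromatin and splicing genes 6.45% were called, against 4.69% of all genes. Summed over the 31 genes the level was 3044 to 3090.0 CPM in Irp1-/-, 3164 to 3189 CPM in Irp2-/- and 3156 to 3192 CPM in WT samples.

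Genes of the X chromosome were called far more often than those of autosomes, a comparison made after the values were seen. Of 706 tested X-linked genes 113 were called higher and 1 lower in Irp1-/- (16.1%), whereas 4.12% of 15479 autosomal genes were called. On Y the share was also high, with 2 of 36 tested genes called higher and 4 lower (16.7%, median log2 fold change -0.13). The median log2 fold change was 0.14 on X and -0.0047 on autosomes, and 74.2% of X-linked genes had a value above 0. Genes on X made up 1.28 to 1.36% of all counts in Irp1-/- samples, 1.20 to 1.28% in WT and 1.15 to 1.20% in Irp2-/- samples. By this share every Irp1-/- sample lay above every WT sample, while the Irp2-/- samples overlapped WT. Of the 113 genes, 48 had only Irp2-/- apart from WT (42.5%, against 40.4% of all called genes) and 34 had neither (30.1%, against 30.4%). Only Irp1-/- was apart for 11 (9.73%, against 19.0%), and both were apart with WT between for 20 (17.7%, against 9.83%). The WT mean was between the knockout means for 109 of the 113 (96.5%), against 87.2% of all called genes and 41.1% of all tested genes. Without Irp2-/- replicate 2, the 113 genes became 75, and the median was 0.12 to 0.16 in every fit that left out a replicate. Rhox5, Akap14 and Prdx4 are among the 113 genes and were also counted in the lists above. Whether they differed apart from the shift of X-linked genes was not tested.

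Cylc1, which encodes cylicin, a protein of the sperm head (chromosome X, 111110418 to 111125854), had 146, 147, 140 and 148 CPM in Irp1-/- and 91.7, 104 and 92.4 CPM in Irp2-/- samples. All WT samples fell between, at 121 to 126 CPM, and the log2 fold change was 0.60 (standard error 0.052, edgeR adjusted p = 1.5e-07). Tspan6, a tetraspanin, and Vsig1, an immunoglobulin-domain membrane protein, had log2 fold changes of 0.64 and 0.54 with WT between the knockouts in the same way. Of 17 tested multicopy genes of X and Y that act in spermatids 23.5% were called, against 4.69% of all genes. Slxl1, Ssty1 and 1700012L04Rik were called higher in Irp1-/- (0.30, 0.38 and 0.41), of which Slxl1 was not called without Irp2-/- replicate 2 (adjusted p = 0.058). Sly, a Y-linked repressor of sex chromosome genes in spermatids, was lower, with 58.9, 64.3, 61.8 and 64.3 CPM in Irp1-/- and 78.1, 92.5 and 91.1 CPM in Irp2-/- samples (log2 fold change -0.48, standard error 0.060, edgeR adjusted p = 2.2e-05). WT samples had 82.4 to 90.5 CPM of Sly, so only Irp1-/- was apart. How reads were split among copies of these families is not stated. The round spermatid markers, in cells that express many X-linked genes, had summed levels of 4815 to 5066 CPM in Irp1-/- and 4566 to 4999 CPM in Irp2-/- samples, with 20 of 22 log2 fold changes above 0 and none called, and their part in the X-linked difference was not tested.

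**Figure D4:**
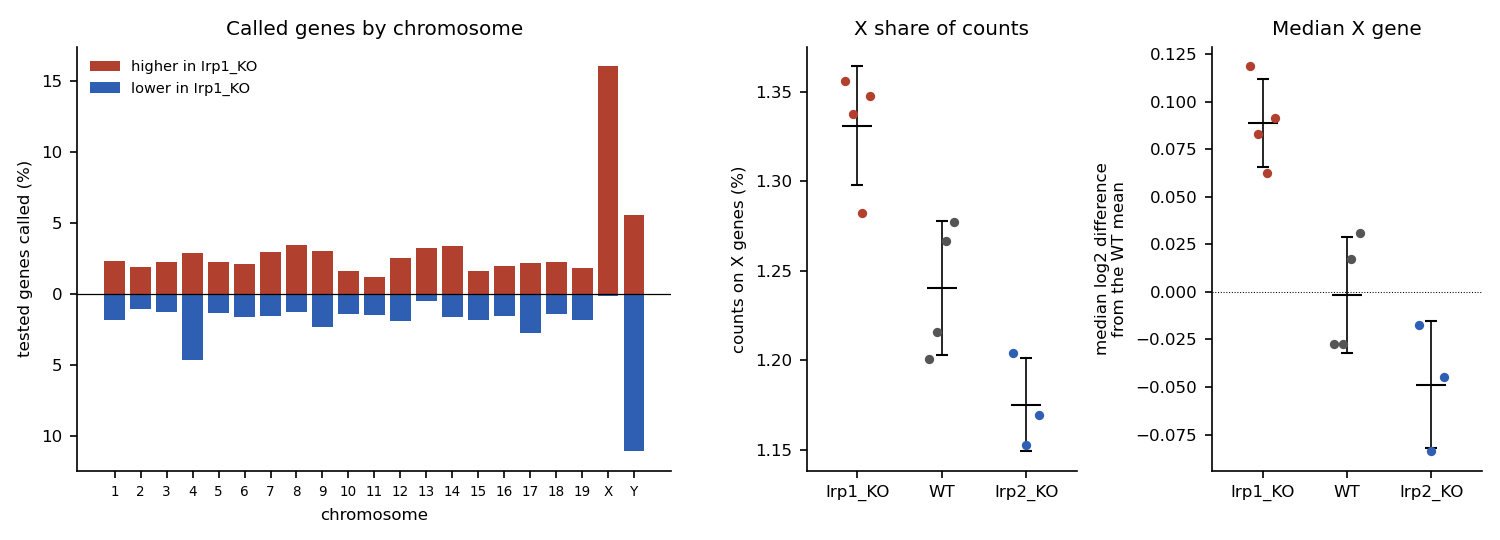
Left, share of tested genes called on each chromosome, upward for genes higher and downward for genes lower in Irp1-/- than in Irp2-/-; middle and right, share of counts on X genes and the median log2 difference of X genes from the WT mean in every sample, with group mean ± SD and axes that do not start at 0. On X, 16.1% of genes were called, almost all higher in Irp1-/-, and Irp1-/- samples sit above and Irp2-/- samples mostly below the WT samples.

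Genes close to the targeted loci were counted next, because each locus was altered in 1 of the groups compared. Among the 305 tested genes nearest to Aco1 (up to 200 on each side, chromosome 4 from 3549041 to 65357509), 31 were called (10.2%, against 4.69% of all genes), 11 higher and 20 lower in Irp1-/-. For 16 of the 31 only the Irp1-/- samples were apart from WT, and for 2 only the Irp2-/- samples, against 19.0% and 40.4% of all called genes. With 100 genes on each side 18 of 200 were called (9%), and without Irp2-/- replicate 2 the count of 31 was 19. Besides Tbc1d2, Zfp462, Gm12505 and Alad, these included Map3k7, the kinase TAK1 (log2 fold change -0.42, edgeR adjusted p = 3.7e-05, 45.9 to 50.8 CPM in Irp1-/- and 63.3 to 66.3 CPM in Irp2-/- samples). Dnajc25 (0.75), 1700123O12Rik (-1.17) and the copies Gm20878 (-0.65), Gm21586 (-0.71) and Fam205a2 (-0.92), which lie 1.80 to 2.38 Mb from Aco1, had only Irp1-/- apart from WT as well. Fam205a2 had an adjusted p of 0.051 to 0.095 without Irp1-/- replicate 1 or 6 or without Irp2-/- replicate 2 or 3.

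Among the 400 tested genes nearest to Ireb2 (chromosome 9, 25108126 to 78109065), 30 were called (7.50%, against 4.69% of all genes), 16 higher and 14 lower in Irp1-/-. Here 16 had only the Irp2-/- samples apart from WT and 8 only the Irp1-/- samples, and these shares are read against 40.4% and 19.0% of all called genes, from which they were not tested to differ. With 100 genes on each side 21 of 200 were called (10.5%), and with all genes the count was 19 without Irp1-/- replicate 1 and 17 without Irp2-/- replicate 2. The called genes nearest to Ireb2 were the co-chaperone gene Dnaja4 at -0.16 Mb, with 278 to 288 CPM in Irp1-/-, 284 to 291 CPM in WT and 232 to 253 CPM in Irp2-/- samples (log2 fold change 0.23, edgeR adjusted p = 0.0040), and Acsbg1 at -0.26 Mb (0.29), for which only Irp1-/- was apart from WT and which was not called without Irp2-/- replicate 2 (adjusted p = 0.077). Besides Dnaja4, those with only Irp2-/- apart included Gm7444, Pstpip1 (-0.95), the snurportin gene Snupn (0.46), 4933407I05Rik (-1.14) and Ncam1, a cell adhesion molecule (0.46). The genotype of the deleted gene cannot be told apart from the strain origin of the chromosome stretch inherited with it.

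**Figure D5:**
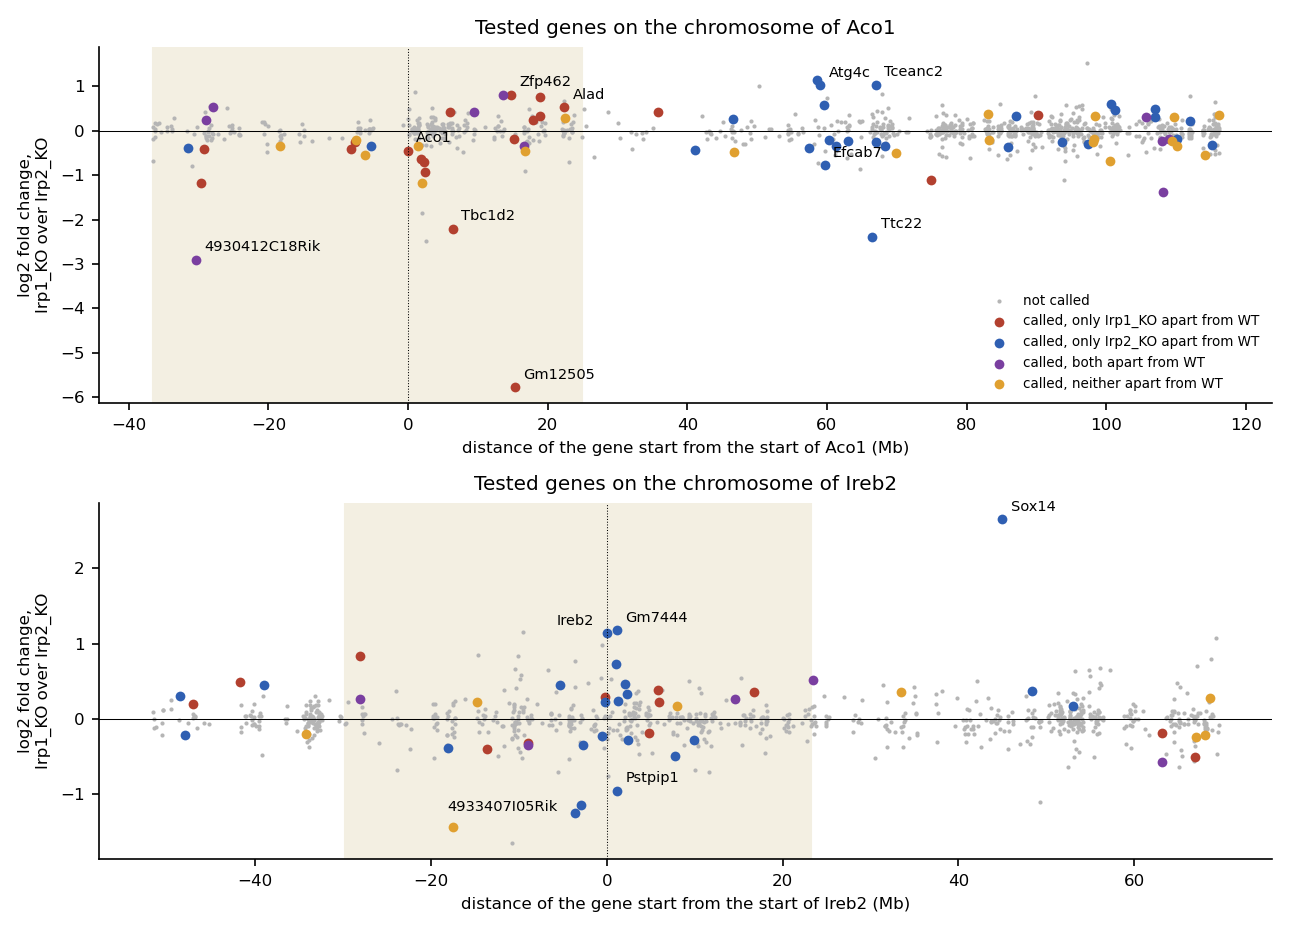
Log2 fold change of Irp1-/- over Irp2-/- for tested genes on chromosome 4 (upper) and 9 (lower), by distance of their start from that of Aco1 or Ireb2 in Mb, with called genes coloured by which knockout lay apart from WT and the windows of up to 200 genes a side shaded. In the Aco1 window 16 of 31 called genes had only Irp1-/- apart and in the Ireb2 window 16 of 30 had only Irp2-/- apart, against 19.0% and 40.4% of all called genes, and 10 more of the latter kind, from Atg4c to Tceanc2 and their neighbours, lie to the right of the Aco1 window.

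A further stretch of chromosome 4 was chosen after its values were seen. Of 63 tested genes that start between 98 and 108 Mb, 10 were called (15.9%, against 4.69% of all genes and 7.50% of those on chromosome 4). For all 10 the Irp2-/- samples alone were apart from WT, against 40.4% of all called genes. Atg4c, a protease of autophagy (99189159 to 99297258), had 29.6, 27.5, 30 and 28.3 CPM in Irp1-/- and 14.1, 14.1 and 14.4 CPM in Irp2-/- samples (log2 fold change 1.02, standard error 0.070, edgeR adjusted p = 3.5e-09). Tceanc2 was lower in Irp2-/- to a like degree (1.03, edgeR adjusted p = 5.6e-09), Efcab7 was higher in Irp2-/- (-0.77), and Ttc22 had 0.157 to 0.495 CPM in Irp1-/- and 1.53 to 1.60 CPM in Irp2-/- samples (-2.38, edgeR adjusted p = 7.5e-05). WT samples had 27.9 to 30.1 CPM of Atg4c and 0.112 to 0.517 CPM of Ttc22, both within or beside the Irp1-/- range.

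The libraries held between 15902473 and 22451417 counts, and replicates of a group differed by more than sampling noise in every pair, so each was kept as a separate sample. Mice were labelled as separate samples, and the p-values measure the spread between these samples. On the 500 most variable genes the first principal component of the 7 knockout samples carried 29.8% of the variance and had all Irp1-/- samples on one side (-16.9 to -4.01) and all Irp2-/- samples on the other (8.42 to 14.7).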

How the data were processed

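Poly(A) RNA of 11 testes was sequenced, and the authors deposited whole-number read counts per gene from the nf-core RNA-seq pipeline on mm10. The counting tool is not given in the sources used here, so the counts may be rounded estimates. Per the labels, demultiplexing used bcl2fastq 2.20.0.422. All 11 columns matched samples by title. Total counts per sample set the depth, and intervals on counts cover counting error only.

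The 7 knockout samples were fitted in R 4.3.3 with edgeR 4.0.16 and limma 3.58.1 (filterByExpr, TMM, robust quasi-likelihood test, Benjamini-Hochberg adjustment over all tested genes). WT samples were not in the fit. They share the TMM scale, and "apart" means no overlap of samples. Each standard error is the log2 fold change divided by the square root of F. DESeq2 1.42.0 was the alternative tool. Further alternatives were RLE scaling, no filter, at least 10 counts in every sample, all 11 samples in the fit, a replicate block, each replicate left out and 100 genes on each side of a locus. The fit was checked on simulated counts. Tables and figures used Python 3.11.15, pandas 2.3.3, scipy 1.17.1 and matplotlib 3.10.9.

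Of 24411 symbols 23194 matched a RefSeq gene (GRCm38) by current and 1096 by older symbol, 13 were ambiguous and 108 unmatched. Named genes were Aco1, Ireb2, the 8 called genes of largest fold in each direction (mean of at least 1 CPM, knockouts not overlapping), the 8 of smallest p in each direction (at least 10 CPM), called genes near Aco1 or Ireb2, called list members and, for lists with none, the member of smallest p. Members, lists and rules were chosen with earlier results of these data known, and the X chromosome, the chromosome 4 stretch and uncalled list members named in the text were singled out after their values were seen.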

Additional observations from a re-analysis of the deposited data

Results flagged for a closer look

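Among 274 groups of 4 samples examined over the named genes and lists, 16 had 1 sample set far from the other 3 relative to the range of the group. Chance alone would give about 1 in 20. Irp2-/-, with 3 samples, could not be examined in this way.

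In Irp1-/-, replicate 7 was apart for 4 genes: Gm21276 (33.8 CPM, others 39.1 to 39.8), Gm12505 (0.0628 CPM, others 0), Rbm12b1 (33.4 CPM, others 37.2 to 37.7) and Ccsap (109.0 CPM, others 99.6 to 101). Replicate 1 was apart for Gm20878 (23.1 CPM, others 25.2 to 25.5) and Mdn1 (109.7 CPM, others 115 to 115). Replicate 2 was apart for Klk1b27 (6.38 CPM, others 7.98 to 8.04) and Tmem225 (65.5 CPM, others 57.9 to 59.0). Replicate 6 was apart for Fdxr (21 CPM, others 22.6 to 22.8) and Actg2 (233 CPM, others 250.2 to 252).

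In WT, replicate 2 was apart for the MHC class II genes Cd74 (21.1 CPM, others 8.06 to 9.31) and H2-Ab1 (14.9 CPM, others 7.99 to 8.52). Replicate 3 was apart for the kallikreins Klk1b21 (12.3 CPM, others 6.72 to 7.58) and Klk1b27 (8.28 CPM, others 4.42 to 4.85). Replicate 1 was apart for Nptxr (2.69 CPM, others 0) and replicate 4 for 1700017B05Rik (156 CPM, others 165 to 167).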

How the results depend on the processing

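The 763 called genes were 765 with RLE scaling (757 shared), 641 in DESeq2 (599 shared), 827 with no filter, 774 with at least 10 counts in every sample and 839 with all 11 samples in the fit (708 shared). Leaving out each replicate gave 414 to 763 called genes, 54 to 75 past 2-fold, 19 to 31 near Aco1 and 17 to 28 near Ireb2. The lowest counts of called genes came without Irp2-/- replicate 2 (414) and without Irp1-/- replicate 1 (471), and the cause was not tested. Requiring at least 10 counts in every sample left 43 genes past 2-fold, since 28 of the 70 were not tested there. With 100 genes on each side, a smaller window, 18 were called near Aco1. The log2 fold change of Aco1 lay between -0.55 and -0.35 without single replicates, and of Ireb2 between 1.12 and 1.18. Replicate numbers 1 and 2 occur in both knockouts, and samples of the same number correlated at 0.068 and -0.020 in their deviations from the group mean. Pairs of unlike number correlated at -0.130 to 0.084. These values cannot tell whether samples of the same number share a litter or batch. With the replicate block, 852 genes were called (606 higher, 246 lower, 541 shared), 108 were past 2-fold, and Aco1 had a log2 fold change of -0.26 (edgeR adjusted p = 0.37). In the block fit the difference between knockouts rests on replicates 1 and 2 alone, since the other replicate numbers occur in only 1 knockout. It is therefore not a like alternative to the fits of all 7 samples. The X-linked count was 75 to 132 over the alternatives, at its lowest without Irp2-/- replicate 2 and 96 in DESeq2. No direction reversed in these alternatives. With 4 against 3 samples, small differences and genes of few counts are the least certain.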

Other observations

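Further genes were described after their values were seen. Ccdc181, a coiled-coil gene on chromosome 1 (164275598 to 164287847), had 44.8, 265, 43.4 and 47.9 CPM in Irp1-/- samples, 453, 517 and 467 CPM in Irp2-/- samples and 459.6 to 511 CPM in WT. Replicate 2 thus stood apart from the other Irp1-/- samples. The gene was not called (log2 fold change -2.23, standard error 0.78, edgeR adjusted p = 0.25), whereas without that replicate the log2 fold change was -3.40 (adjusted p = 4.4e-17). Over all alternatives its adjusted p ranged from 4.4e-17 to 0.77.

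A cluster of testis ADAM genes on chromosome 8, which encode metalloprotease-disintegrin proteins of sperm, held several called genes. Of 22 tested genes that start between 40 and 45 Mb 8 were called (36.4%, the highest share of any 5 Mb bin with at least 20 tested genes, against 4.69% of all genes), among them Adam20 (log2 fold change 0.38), Adam24 (0.28), Adam25 (0.44), Adam26a (0.47), Adam26b (0.49) and Adam39 (0.31), all higher in Irp1-/-. These genes are similar to each other, and how reads were divided among them is not stated. On chromosome 17, 6 of 39 tested genes that start between 10 and 15 Mb were called (15.4%, against 4.69% of all genes), all higher in Irp1-/-: Gm3417, Gm3448, Smok2a, Smok2b, Smok4a and Tcp10c. The Smok genes encode sperm motility kinases.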
